A study of Mus musculus with 2 samples.

Results

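The 9 Hedgehog pathway genes Ptch1, Smo, Gli1, Gli2, Gli3, Hhip, Sufu, Gas1 and Cdon were followed in messenger RNA of adult murine mesenchymal stem cells with and without Dicer, the enzyme that cuts microRNA precursors into mature microRNAs. They were chosen by symbol from the 23227 genes of the authors' deposited table, with their levels in both genotypes in view, so those levels are a description and not a finding. One line carried floxed, intact Dicer alleles (Dicer f/f, wild type, WT) and the other had lost Dicer (Dicer -/-, knockout, KO). Both were immortalised, and each line is a clone grown from a single cell, so a difference between genotypes cannot be told apart from a difference between clones. They are called mesenchymal stem cells in the source and fibroblasts under cell type in the labels. The cells were lysed below confluence, with no Hedgehog ligand or inhibitor named, and polyA RNA was sequenced with 1 sample listed per genotype.

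Hedgehog ligands bind the receptor Patched (Ptch1), which in their absence holds the membrane protein Smoothened (Smo) inactive. Once released, Smoothened acts through the primary cilium to free the GLI transcription factors from the inhibitor Sufu and from processing into repressors. Ptch1, Hhip and Gli1 are themselves induced by the pathway in many tissues, and in mesenchymal tissue it is known for its part in patterning limbs and in bone formation.

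The table gave 1 mean of normalised reads per gene and genotype, in which the whole reads of 2 libraries per genotype could be recovered. These are called the deeper and the shallower library after their totals, which lay between 14135422 and 15718369 reads in genes. Nothing in the labels says how the libraries of a genotype relate, so the spread between them may be technical. The targeted gene Dicer1 was at 873 normalised reads in WT (804 and 943 in the deeper and the shallower library) and at 565 in KO (573 and 557), a ratio of 0.647. A value for the whole gene does not separate the deleted part from the rest. Of 12 mesenchymal markers 11 were above the minimum of 20 normalised reads, and Thy1 had 0 reads in every library. Summed over the list they reached 163164 and 194689 normalised reads in the WT libraries and 105575 and 133813 in the KO libraries, most of it from Vim, Col1a1 and Col1a2. The called markers went both ways, with ratios of KO over WT of 0.432 for Col1a1 and 0.486 for Col1a2, and of 5.58 for Col3a1 and 2.81 for Vcam1. The part of these shifts in the Hedgehog values was not tested. The summed markers of haematopoietic, endothelial and epithelial cells stayed between 9.64 and 71.8 normalised reads per library, and Epcam and Cd3e had 0 reads. Of these markers only Cd68 (26.9 in WT and 29.1 in KO) and Krt8 (26.3 and 34.2) reached the minimum. Krt8 was at 7.71 in the deeper and 44.8 in the shallower WT library. The haematopoietic marker Spi1 was absent from the authors' deposited table.

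A call required a ratio of the authors' means, KO over WT, of at least 2 (higher) or at most 0.5 (lower), a 95% counting interval (exact, Clopper-Pearson) without 1 in it, and a mean over both genotypes of 20 normalised reads or more. Over the 11710 genes with that mean, 8.92% were called higher and 8.56% lower. Of the 9 Hedgehog genes 8 reached the minimum, all but Gli1. Ptch1, Gas1 and Gli2 were called higher, Smo and Hhip lower, and Gli3, Sufu and Cdon neither. These calls use the contrast in which the genes were proposed, and nothing is read from their number. By the adjusted p of the authors' deposited table, 2 were higher and 2 lower, where 5.56% and 5.34% of all tested genes were. The intervals cover counting error only, and the adjusted p-values quoted for the 9 genes are those of the authors' deposited table, copied as a description.

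**Figure D1:**
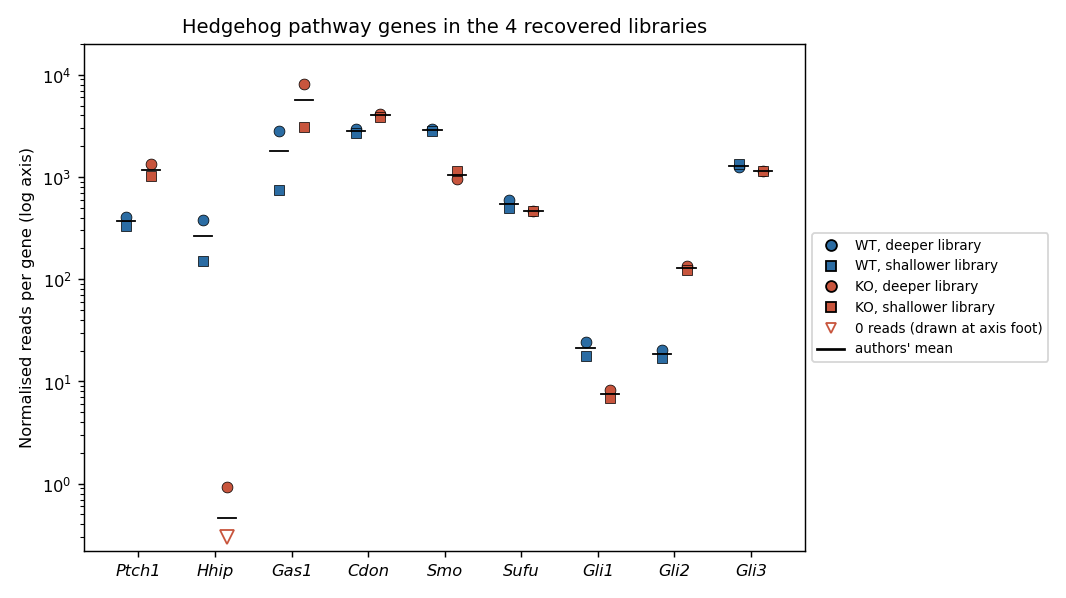
Normalised reads (log axis) of the 9 Hedgehog pathway genes in the deeper (circles) and shallower (squares) WT and KO libraries, with the authors' mean as a bar and 0 reads as an open triangle. Hhip spans the widest gap, from 378 and 149 in WT to 0.920 and 0 in KO, while the 4 values of Gli3 lie between 1141 and 1341.

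The receptor gene Ptch1 and the decoy gene Hhip, whose products both bind Hedgehog ligands and restrain the pathway, stood on opposite sides. Ptch1 was at 408 and 335 normalised reads in the deeper and the shallower WT library and at 1331 and 1015 in the KO libraries. Both KO values lay above both WT values, with a ratio of means of 3.16 (counting interval 2.91 to 3.44) and an adjusted p of 3.61e-04 in the authors' deposited table. In bulk RNA, more cells with the transcript and more transcript per cell cannot be told apart.

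Hhip encodes a membrane-anchored protein that sequesters Hedgehog ligands. It had 392 and 133 reads in the WT libraries, or 378 and 149 after normalisation. The KO libraries held 1 read and 0 reads. The ratio of means was 0.00175, 573-fold lower in KO, with a counting interval from 4.41e-05 to 0.00977 and an adjusted p of 3.29e-04 in the authors' deposited table. The WT libraries themselves stood 2.53-fold apart, far less than the gap between genotypes. Per kb of transcript, Hhip made up 44.1% and 27.5% of the summed Hhip and Ptch1 level in the WT libraries, and 0.0588% and 0% in the KO libraries.

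Because both genes are known as feedback targets of the GLI factors, their promoters are shown. The sequences are the 250 bases before the annotated start in RefSeq (build GRCm38.p6, not the authors' build), 5' to 3' on the gene's strand, which is the minus strand for both, with CG dinucleotides in capitals. The Ptch1 stretch is chr13:63565736-63565985 and the Hhip stretch is chr8:80058009-80058258.
Ptch1: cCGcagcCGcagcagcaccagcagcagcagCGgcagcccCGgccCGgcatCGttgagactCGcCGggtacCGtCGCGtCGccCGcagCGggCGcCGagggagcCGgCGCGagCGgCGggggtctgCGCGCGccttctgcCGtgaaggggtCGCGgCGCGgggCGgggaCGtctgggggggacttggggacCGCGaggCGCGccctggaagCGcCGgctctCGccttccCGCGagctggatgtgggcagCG
Hhip: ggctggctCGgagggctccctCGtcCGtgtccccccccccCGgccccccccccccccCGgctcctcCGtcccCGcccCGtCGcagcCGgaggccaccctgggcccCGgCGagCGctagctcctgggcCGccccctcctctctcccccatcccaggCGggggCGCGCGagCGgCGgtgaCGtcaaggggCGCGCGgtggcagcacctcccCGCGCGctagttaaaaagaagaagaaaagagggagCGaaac
They hold 41 and 28 CG dinucleotides. With the 50 bases after the start included, GC content was 76.3% for Ptch1 and 73.7% for Hhip, against a median of 52.7% over all 32851 promoter windows in the RefSeq table. Windows of 8 of the 9 genes were in that table, all but Gli1. GC content of the others ran from 44.7% for Cdon to 71.0% for Gli3, and all but Cdon lay above that median. The GLI consensus GACCACCCA, searched as an exact match on both strands, was in 0 of these 8 windows and in 0.253% of all windows. The looser form GACCNCCCA, which includes the first, was also in 0 of the 8 and in 0.977% of all. No match says only that these letters are not in this window. 

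Of the co-receptor genes, Gas1 was called higher in KO, a call that ended without either of 2 libraries, Cdon was called neither, and their partner Boc was called lower. All of these encode cell surface proteins that help present ligand to Patched and can stand in for each other in many tissues. Gas1, the gene of a GPI-anchored co-receptor, was at 2827 and 752 normalised reads in the deeper and the shallower WT library and at 8110 and 3099 in the KO libraries. The KO values exceeded both WT values, but the deeper library was the higher in each genotype, 3.76-fold in WT and 2.62-fold in KO. The ratio of means was 3.13 (counting interval 3.02 to 3.25), and the adjusted p in the authors' deposited table was 0.642. Without the shallower WT library the ratio was 1.98 and without the deeper KO library 1.73, both short of 2-fold, and without the deeper WT library it was 7.45. With deeper set against deeper and shallower against shallower library, the ratios were 2.87 and 4.12.

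Cdon, an immunoglobulin superfamily co-receptor, was at 2924 and 2698 in the WT libraries and at 4178 and 3826 in the KO libraries. The groups did not overlap, and the ratio of means was 1.42 (1.38 to 1.47), with an adjusted p of 0.628 in the authors' deposited table. Boc, the close relative of Cdon and outside the 9 genes, was at 708 and 334 in WT and at 37.7 and 18.9 in KO. Its ratio was 0.0544 (0.0412 to 0.0705), 18.4-fold lower in KO. Leaving out the deeper WT library gave 0.0847. The authors' deposited table gives Boc an adjusted p of 0.00684.

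Per kb of transcript, Boc held 10.6% and 10.9% of the summed level of these co-receptor genes in the WT libraries and 0.256% and 0.272% in the KO libraries. The share of Gas1 was 63.5% and 36.9% in WT and 82.9% and 67.1% in KO, so the KO shallower library stood close to the WT deeper one. Cdon took the rest. The sum itself ran from 689 to 1503 normalised reads per kb in WT and from 1561 to 3304 in KO.

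**Figure D2:**
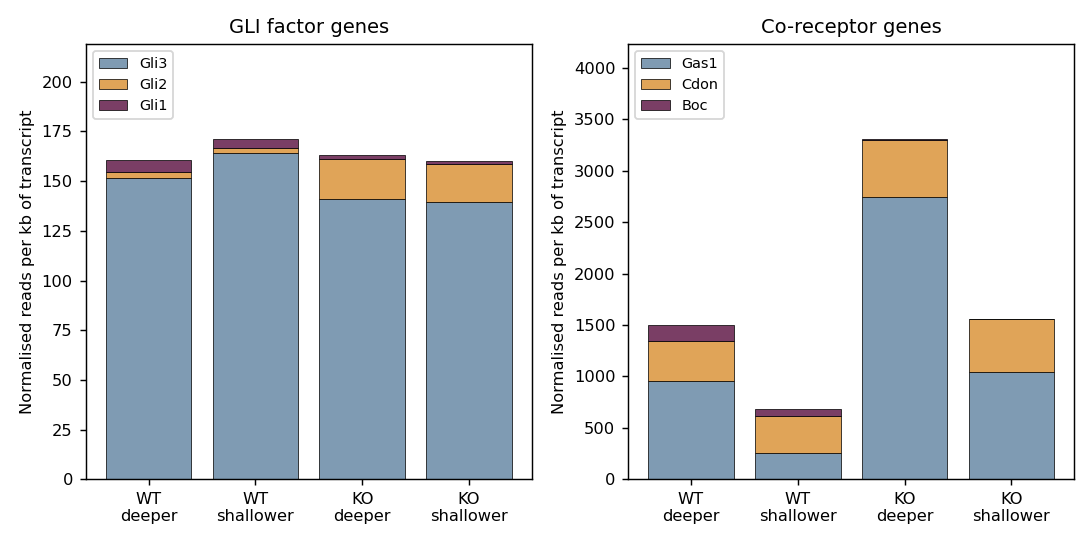
Stacked normalised reads per kb of transcript of the GLI factor genes (left) and the co-receptor genes (right) in each recovered library. On the left the totals lie between 160 and 171 per kb while the Gli2 segment is wider in KO. On the right Boc falls from over 10% of each WT bar to 0.256% and 0.272% of the KO bars.

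Smo, the signal transducer that Patched restrains, was lower in KO. It was at 2923 and 2848 normalised reads in the WT libraries and at 949 and 1134 in the KO libraries. The libraries of each genotype lay close together (1.03-fold apart in WT and 1.20-fold in KO), with no overlap between genotypes. The ratio of means was 0.361 (0.343 to 0.38), 2.77-fold lower in KO, and the adjusted p in the authors' deposited table was 0.00121. Set against its inhibitor per kb of transcript, Smo exceeded Ptch1 14.7-fold and 17.4-fold in the WT libraries and 1.46-fold and 2.28-fold in the KO libraries. A ratio of 2 genes within a library does not depend on how libraries were scaled, but it does not say which of them changed.

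Sufu, the cytosolic inhibitor that binds GLI proteins, was at 597 and 492 in WT and at 460 and 465 in KO. The KO values lay just below the lower WT value, with a ratio of 0.849 (0.777 to 0.927) and an adjusted p of 1 in the authors' deposited table. The WT libraries stood 1.21-fold apart, more than the 1.18-fold between the genotype means. The 3' UTR of Sufu, at 2860 bases in its longest GENCODE M21 form, held 3 seed sites of miR-125b, a microRNA reported to restrain Hedgehog signalling. As many were found in 24 (1.02%) of 2345 UTRs of like length, meaning 0.8 to 1.25 times its own. This pair was singled out after all combinations of gene and microRNA had been seen. Of the same microRNA, Smo held 0 sites and Hhip 1.

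The 3 GLI genes did not move together. Gli2, the main activator in most tissues, was at 20.2 and 16.8 normalised reads in the WT libraries and at 135 and 124 in the KO libraries, from 21, 15, 147 and 125 reads. The KO values lay far above both WT values, with a ratio of 7.01 (4.94 to 10.2) and an adjusted p of 7.40e-05 in the authors' deposited table. The WT mean of Gli2, 18.5, was as near the limit of detection as that of Gli1, 21.0. Gli2 reached the minimum mean of 20 only through its KO level. Gli3, which acts mainly as a repressor, was at 1239 and 1341 in WT and at 1152 and 1141 in KO. Its ratio was 0.889 (0.840 to 0.941), with an adjusted p of 1 in the authors' deposited table. The KO values lay below both WT values, and the genotype means stood 1.12-fold apart, against 1.08-fold between the WT libraries.

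Gli1, an activator whose own transcription is a common readout of the pathway, was near the limit of detection. It had 25 and 16 reads in the WT libraries and 9 and 7 in the KO libraries, or 24.1, 17.9, 8.28 and 6.97 normalised reads. The ratio was 0.363 with a wide counting interval from 0.190 to 0.660, and the adjusted p in the authors' deposited table was 0.661. Both KO values lay below both WT values. Gli1 shares exon bases with Arhgap9 on the other strand in GENCODE M21, and whether the authors counted by strand is not given in the sources used here; Arhgap9 itself had 2 reads in WT and 1 in KO. Gas1, Gli3 and Hhip also share exon bases with predicted genes on the other strand (Gm48488, Gm6556 and Gm27820).

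Per kb of transcript, Gli3 made up 94.4% and 95.9% of the GLI transcripts in the WT libraries and 86.3% and 87.2% in the KO libraries. Gli2 went from 1.90% and 1.48% to 12.5% and 11.7%, and Gli1 from 3.70% and 2.58% to 1.25% and 1.07%. The sum of the 3 genes stayed between 160 and 171 normalised reads per kb in all 4 libraries. In WT the Gli1 level per kb exceeded that of Gli2, and in KO that of Gli2 exceeded Gli1. The WT order is not firm, with 25 and 16 reads of Gli1 against 21 and 15 of Gli2. It leans on the transcript lengths taken, 4057 bases for Gli1 and 6637 for Gli2.

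Since mature microRNAs depend on Dicer, seed sites of 15 microRNAs were listed in the 3' UTRs of the 9 genes, taking the longest one GENCODE M21 annotates. A site was an exact match of 7 bases, complementary to seed positions 2 to 8. The microRNAs below, from the RefSeq table (build GRCm38.p6), are those with 3 sites in a Hedgehog gene, and miR-326, which is reported to target Smo; the seed is in capitals.
miR-30a-5p: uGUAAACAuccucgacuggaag
miR-125b-5p: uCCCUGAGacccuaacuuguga
miR-27a-3p: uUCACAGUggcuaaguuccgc
miR-326-3p: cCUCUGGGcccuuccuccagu
Gli2, the gene with the highest ratio of the 9, held 3 miR-30 sites in a 3' UTR of 1653 bases, starting at bases 695, 833 and 1357 of it. They are shown 5' to 3' with the site in capitals and up to 8 bases on either side.
Gli2 site 1: tcctggccTGTTTACagtgttct
Gli2 site 2: aagtcataTGTTTACccgctcct
Gli2 site 3: aacttctcTGTTTACaacccaga
Of 2823 UTRs of like length 17.4% held at least 1 miR-30 site and 5 (0.177%) held 3 or more, Gli2 included. The pairs with 3 sites were singled out after all 135 combinations had been seen, so these shares are no preset comparison, and a match is a description, not a bound site.

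Genes that were lower in KO held sites as well. Hhip, with a 3' UTR of 6480 bases, held 3 sites of miR-27 and 2 each of miR-21 and miR-19. As many miR-27 sites were in 28 (5.27%) of 531 UTRs of like length. Smo held 1 site each of miR-21, miR-199a-3p and miR-326, the last at base 316 of its 1080 and shown here.
Smo miR-326 site: tgatggtaCCCAGAGtgggctgt
Of UTRs of like length 15.4% held a miR-326 site. Ptch1, Gli2, Gli3 and Sufu held 1 miR-326 site each as well, so the site is not particular to Smo. Gas1 held 1 site, of miR-214, as did 23.5% of UTRs of like length. Ptch1 held 1 each of miR-16, miR-29, miR-23 and miR-326, each found in 27.3% to 41.3% of UTRs of like length. Sites of let-7, miR-17, miR-26 and miR-324-5p were in none of the 9 UTRs. Of the 135 combinations 26 had a site, and genes on both sides of a ratio of 1 were among them. Such matches are common in UTRs of like length, so nothing is read from that number.

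In order of level per kb of transcript, WT ran from Smo (763 normalised reads per kb) through Gas1 (604), Cdon (375), Gli3 (158), Sufu (120), Ptch1 (48.1), Hhip (29.0) and Gli1 (5.18) to Gli2 (2.79). The place of Gas1 is not fixed, since its libraries at 955 and 254 enclose the values of both Smo and Cdon. In KO the order was Gas1 (1893), Cdon (533), Smo (276), Ptch1 (152), Gli3 (140), Sufu (102), Gli2 (19.6), Gli1 (1.88) and Hhip (0.0507). Ptch1 at 172 and 131 and Gli3 at 141 and 140 did not differ beyond their spread there. Lengths are those of the longest GENCODE M21 transcript, which may not be the one made in these cells.

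**Figure D3:**
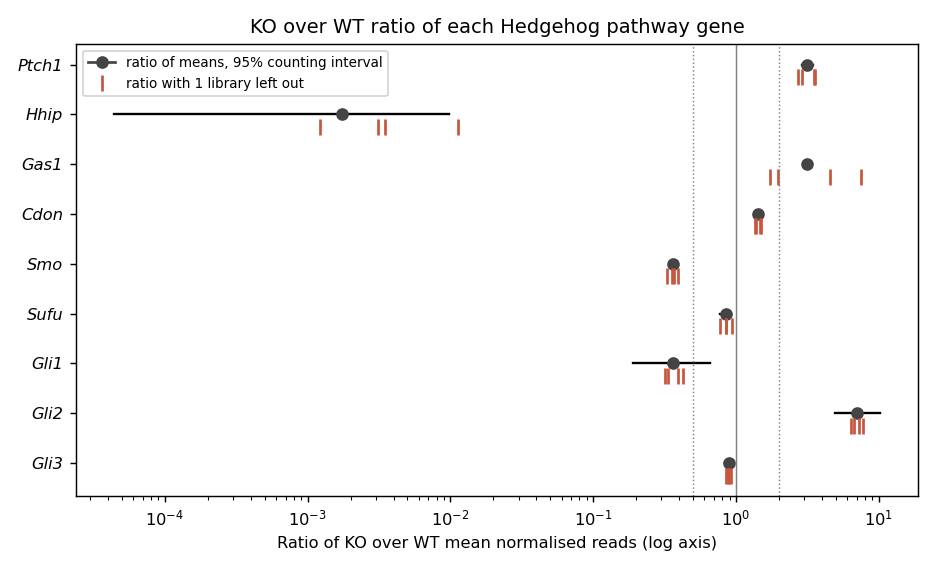
Ratio of KO over WT means for each Hedgehog pathway gene (log axis) with its 95% counting interval, and below it the ratios with 1 of the 4 libraries left out; dotted lines mark 2-fold. Gas1 spreads from 1.73 to 7.45 and Hhip from 0.00122 to 0.0113, whereas those of Ptch1 lie between 2.73 and 3.58 and those of Gli2 between 6.41 and 7.72.

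As the libraries of the genotypes overlapped for none of the 9 genes, leaving out 1 could not move a ratio across 1. Only the size of the ratios is read here. Smo stayed between 0.329 and 0.393, Gli1 between 0.316 and 0.425, Cdon between 1.36 and 1.49, Gli3 between 0.855 and 0.926 and Sufu between 0.775 and 0.939. Without the deeper WT library the counting interval of Sufu, 0.838 to 1.05, included 1. For Hhip without the deeper KO library, which held its only KO read, KO was set to 3 reads. The 0.0113, or 88.3-fold lower, is therefore a set value and not a measured ratio. The counting interval there reached 0.0140. Its ratio was 0.00308 without the deeper WT and 0.00349 without the shallower KO library. Across genes the libraries of the genotypes did not overlap for any of the 9, with 4 higher and 5 lower in KO; of all genes tested, 30.4% had both KO libraries above both WT libraries and 28.8% below.

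**Figure D4:**
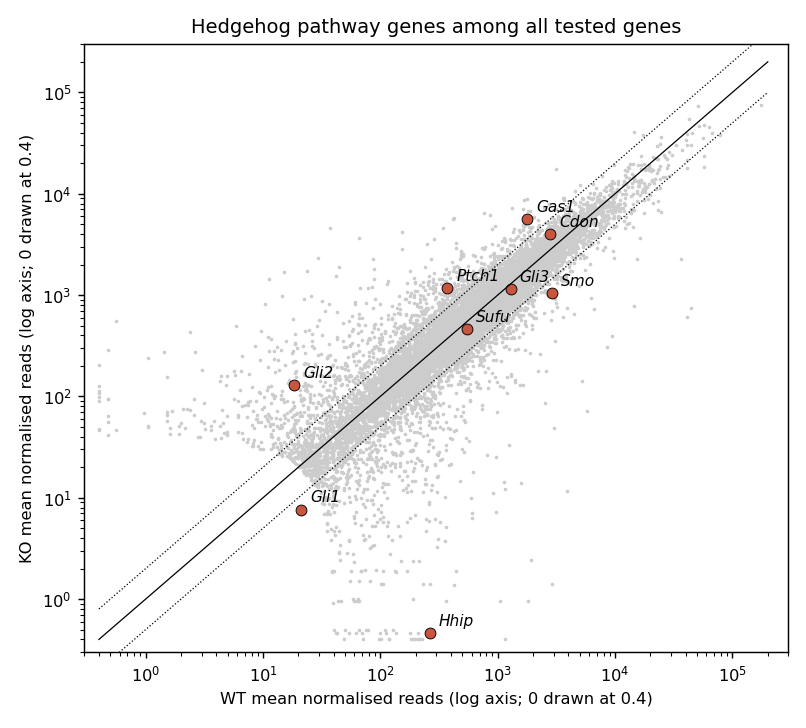
Mean normalised reads in KO against WT (log axes) for all tested genes (grey) and the Hedgehog pathway genes (red), with the line of equal levels and dotted lines at 2-fold. Ptch1, Gas1 and Gli2 lie above the upper dotted line, Smo, Gli1 and Hhip below the lower one, and Hhip sits at the KO level of 0.460.

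The rest of the pathway was read from lists chosen by role, 99 further genes in all, of which 81 reached the minimum. Of these, 9 were called higher and 5 lower, 11.1% and 6.17%, near the 8.92% and 8.56% of all genes tested. The lists were chosen with earlier results of these data known, so nothing is read from these shares. The median log2 ratio was 0.06, against -0.01 over all tested genes. With 0.1 as the limit for its adjusted p, the authors' deposited table gave 4 of them as higher and 4 as lower. Of all tested genes it gave 5.56% as higher and 5.34% as lower. Leaving out 1 library at a time ended 10 of the 14 calls, and those of Arrb1, Boc, Foxc2 and Foxd1 were kept.

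Ligand genes were hardly detected. Shh had 0 reads in all 4 libraries, a count that allows up to 2.76 to 3.36 normalised reads per library, and Ihh and Dhh were at or below 2.83 normalised reads in both genotypes. Of the genes of ligand release, Disp1, which exports ligand, had 0 reads, and Disp2 was at 1.12 in WT and 17.9 in KO, below the minimum. Hhat, which attaches palmitate to the ligand, was at 60.5 and 71.5. Scube3, of a family of secreted proteins that help release ligand, was called higher at 37.4 against 258, but its libraries overlapped between genotypes (70.4 and 4.48 in WT, 456 and 59.7 in KO). Its ratio of 6.89 was 57.5 without the deeper WT library, 3.67 without the shallower WT, 12.2 without the shallower KO and 1.60 without the deeper KO library, which ended the call.

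Among other receptors and binding proteins, 2 of 5 tested genes were called lower, Boc and the glypican gene Gpc4, and 0 were called higher. Of all tested genes 8.56% were called lower, and nothing is read from a count over 5 genes. Gpc4 was at 852 and 825 in WT and at 448 and 329 in KO, a ratio of 0.463, which was 0.534 without the shallower KO library, ending the call. Of 2 other glypican genes, Gpc1 had a ratio of 1.43 and Gpc6 was at 649 normalised reads in WT and 911 in KO. The adjusted p of the authors' deposited table, from the same reads, gave 0 as higher and the same 2 as lower. It gave 5.34% of all tested genes as lower.

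Of 14 tested regulators of Smo, 1 was called higher, 0 lower and 13 neither, where 8.92% of all tested genes were called higher. Arrb1, which encodes a beta-arrestin that binds Smo, was at 464 and 192 in WT and at 1533 and 1064 in KO, a ratio of 3.96 (3.64 to 4.32), or 6.77 without the deeper WT library. The authors' deposited table gives Arrb1 an adjusted p of 0.00321. Smurf2 and Adrbk1 (a kinase of Smo) had ratios of 0.676 and 0.704. Of 19 tested genes of GLI processing, 1 was called higher and 18 neither, with ratios of 1.03, 1.12 and 1.11 for Prkar1a, Csnk1a1 and Csnk1d, regulators and kinases that act on GLI proteins. The kinase gene Stk36 was called higher at 36.1 against 83.5, but its libraries overlapped, and the call ended without the shallower WT (1.84) or the deeper KO library (1.21).

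Genes of the primary cilium were mostly called neither. Of 26 tested, 2 were called lower, 0 higher and 24 neither, with a median log2 ratio of -0.15. Over all tested genes 8.56% were called lower and 8.92% higher. Arl3, a small GTPase gene of ciliary cargo release, was at 754 and 679 in WT and at 324 and 356 in KO, a ratio of 0.474. Mks1, of the ciliary transition zone, was at 53.0 and 63.9 in WT and at 31.3 and 25.9 in KO, a ratio of 0.489. Both calls lay at the 2-fold limit and ended with a library left out, just past 0.5 for Arl3 without the deeper WT library and at 0.539 and 0.535 for Mks1 without the shallower WT and the shallower KO library. Among the most abundant genes of this list without a call, Tulp3 had a ratio of 0.874 and Kif3b one of 1.75, and Ift80 was at 848 normalised reads in WT and 937 in KO.

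**Figure D5:**
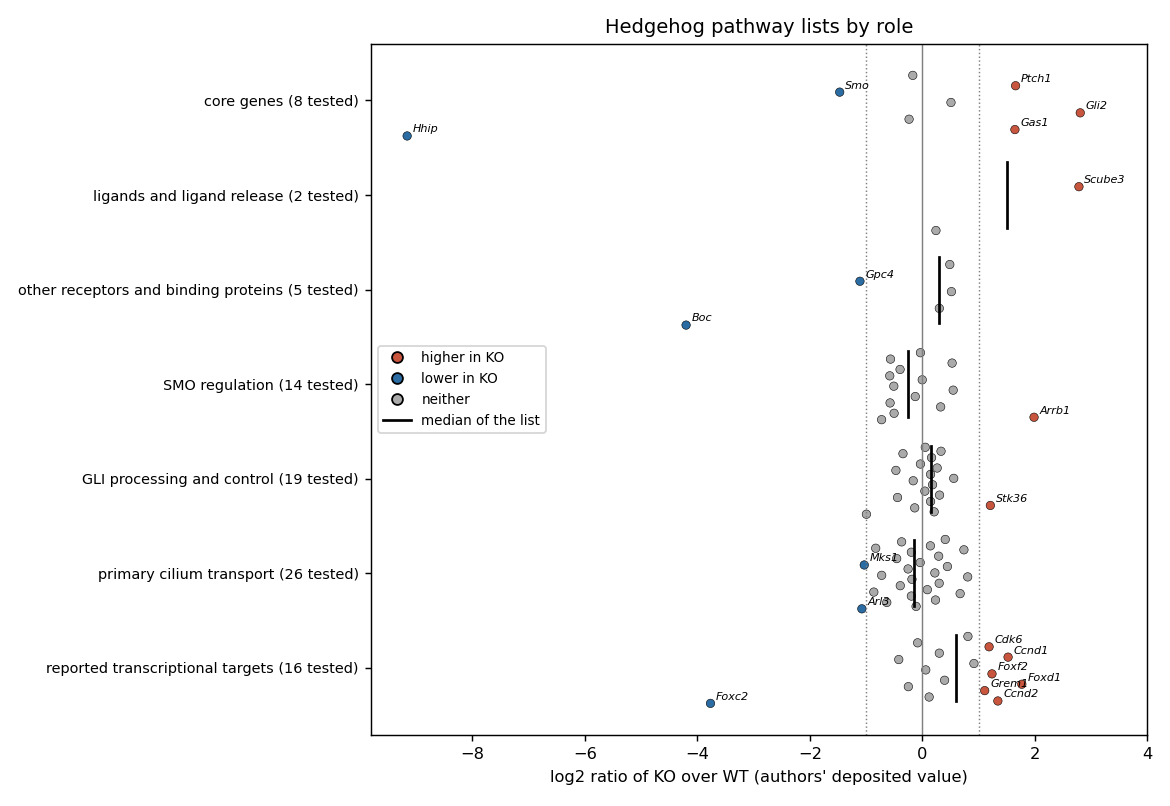
Authors' log2 ratio of KO over WT for each tested gene of the core Hedgehog genes and of 6 lists by role, with called genes coloured and named and the median of each of the 6 lists as a bar; dotted lines mark 2-fold. Most genes of SMO regulation, GLI processing and cilium transport lie between the dotted lines, and Hhip, Boc and Foxc2 lie farthest to the left.

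Genes reported elsewhere as Hedgehog targets split. Of 16 tested, 6 were called higher, 1 lower and 9 neither, with a median log2 ratio of 0.60. Over all tested genes 8.92% were called higher and 8.56% lower. The authors' deposited table called 3 of the 16 higher and 1 lower, where 5.56% and 5.34% of all tested genes were. The list was chosen with earlier results of these data known, so nothing is read from these counts. The forkhead gene Foxd1 was at 102 and 67.3 in WT and at 299 and 279 in KO, a ratio of 3.41 (2.87 to 4.07), and the authors' deposited table gives it an adjusted p of 0.00219. Foxc2, another forkhead gene, went the other way, at 209 and 188 in WT and at 20.2 and 8.96 in KO, 13.6-fold lower. Its ratio of 0.0734 was 0.0451 without the deeper KO library, and the authors' deposited table gives it an adjusted p of 2.01e-09. The others called higher were Foxf2 (ratio 2.36), the cell cycle genes Ccnd1 (2.88), Ccnd2 (2.54) and Cdk6 (2.28), and the BMP antagonist gene Grem1 (2.16).

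Each of those 5 calls ended without at least 1 library. Foxf2 was at 1.76 without the deeper KO library, Ccnd1 at 1.47 without the shallower KO, Ccnd2 at 1.99 without the shallower WT and Cdk6 at 1.99 without the shallower KO library. Grem1 was at 1.32 without the shallower WT and 1.72 without the deeper KO library, and at 5.92 without the deeper WT library. Foxm1, Foxc1 and Rab34, the most abundant targets without a call, had ratios of 0.842, 1.09 and 1.04. Most of these genes answer to other pathways as well.

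For each called Hedgehog gene, the 3 nearest in level among the tested genes outside all lists were found. Distance was taken over log2 of the WT and KO means plus 1, a likeness over 2 genotypes only. Like ratios follow from this choice. Nearest to Ptch1 were Cd82, Stk38l and Slc38a7, and nearest to Smo were Msrb3, Snhg1 and Manf. Gli2 was nearest to Rbm47, 4931408A02Rik and Ugt1a6a, and Gas1 to Tapbp, Hif1an and Ly6e. For Hhip they were Kcnh1, Gria3 and Mageh1, which had ratios of 0.00177, 0.00221 and 0.00256, the last at a distance of 0.55 where the nearest genes of Smo lay within 0.11.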

How the data were processed

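PolyA RNA of 1 WT and 1 KO sample was compared. TopHat 1.4.0, DESeq 1.10.1 and build mm9 appear in the submitters' processing notes, with no role or order; no source used here gives the counter or the annotation. The signal the authors deposited is, per the file headers and the values, each gene's mean of reads divided by size factors, with the fold (a ratio of condition B over A), its log2 value and p-values, raw and adjusted. Condition A was taken for WT, and B for KO, because the comparison names them in that order. For 100% of the genes above 0, exactly 1 pair of whole reads gave the mean within 1e-10 plus 1e-13 of its value, so 2 libraries per genotype were recovered; 5924 symbols had 0 reads. Because this contrast chose the Hedgehog genes, no test of them is reported. The members and lists were chosen with earlier results of these data known. Named were the 9 genes, every called gene of the lists, up to 3 uncalled genes of the highest mean per list, and the 3 nearest genes. Some genes that this rule names are not reported here. limma 3.58.1 on log2(normalised reads + 1) was an alternative only. Methods were checked on simulated data.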

Additional observations from a re-analysis of the deposited data

How the results depend on the processing

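Scaling by total reads moved the Gli3 ratio to 0.929, and TMM factors moved none of the 9 Hedgehog ratios beyond the spread between libraries. The deeper KO library was also set against the deeper WT library, and the shallower against the shallower. Ratios were then 0.325 and 0.398 for Smo, 0.930 and 0.851 for Gli3, 0.771 and 0.944 for Sufu, and 2.87 and 4.12 for Gas1. For Hhip in the shallower pair, with KO set to 3 reads, the ratio was 0.0200. The counting interval there, from the 0 KO reads, reached 0.0250. With 1 library left out, ratios ran from 0.329 to 0.393 for Smo, 0.855 to 0.926 for Gli3, 0.00122 to 0.0113 for Hhip, 0.775 to 0.939 for Sufu and 1.73 to 7.45 for Gas1. Over all genes, 1044 were called higher and 1002 lower. These counts were 2030 and 2092 at 1.5-fold, 651 and 625 by the authors' adjusted p, and 540 and 485 by limma on the recovered libraries; with no minimum mean 1577 were lower. With 1 library left out they ran from 880 to 1342 and from 1062 to 1308. For the wider Hedgehog lists, 9 higher and 5 lower became 14 and 11 at 1.5-fold, 4 and 4 by the authors' adjusted p, and 2 and 4 by limma. Lower genes numbered 8 with a minimum of 5 or none, and 3 to 7 with 1 library left out, the fewest without the shallower KO library. The cause was not tested. The labels list 1 sample per genotype and pair no WT library with a KO library, so no paired test was run. Depth limits Gli1, Gli2 in WT, Hhip in KO and the ligand genes.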
